A study of Capra hircus with 24 samples.

Results

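The 32 genes described here encode the sensors, transcription factors, chaperones and feedback enzymes of the endoplasmic reticulum (ER) stress response and of the linked amino acid response, measured in dermal papilla cells of cashmere goats (Capra hircus). They were taken by gene symbol and had to reach a value of 1 in at least 3 libraries. All 32 did so, out of 13049 genes that passed this level and 20326 that were listed. These mesenchymal cells sit at the follicle base and direct hair growth. They came either from secondary follicles, which make the fine cashmere fibre, or from primary follicles, which make the coarse guard hair. The labels place October in anagen, the phase of hair growth, and June in early anagen. The 8 groups are secondary cells of males and of females in October and in June, and primary cells of males and of females in October and in June, with 3 libraries in each. The labels used here name no genotype, treatment, age or culture step, and no animal behind a library.

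Proteins bound for secretion fold in the ER with the help of chaperones. When unfolded proteins build up there, the membrane sensors ERN1 (IRE1), EIF2AK3 (PERK) and ATF6 signal to the nucleus. ATF6 and the spliced form of XBP1 raise chaperone and degradation genes, while EIF2AK3 slows translation and lets ATF4 be made. ATF4 is also made when amino acids run short, and it raises genes of amino acid supply and of feedback such as ASNS, SESN2, CHAC1 and TRIB3. Papilla cells secrete a proteoglycan-rich matrix and so carry a folding load of their own. The values here are RNA levels of whole genes. They show neither XBP1 splicing nor the amount of ATF4 protein, which are the regulated steps of these arms.

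Library totals of the deposited values ran between 959766 and 1045876, and the depth in reads is unknown. Pairs of libraries within 1 group had a correlation over genes of 0.993 to 0.997, and pairs across groups 0.954 to 0.992, where genes do not count as independent replicates. Every member had a value of at least 5.6 in every library. PDGFRA and VCAN, genes of mesenchyme and papilla, were present in every group, with group means of 111 to 289 and of 211 to 501. The papilla markers CORIN and HHIP were at or near 0 throughout. SOX2 was at most 0.7 in secondary June libraries and in secondary October libraries of females, against 10.6 or more in all other groups. In bulk RNA, fewer cells of a type and less RNA per cell cannot be told apart. Values are called by the deposited normalised expression, and means carry the SD over 3 libraries (n = 3 each). Differences are on the log2(value + 1) scale with their standard error, from limma with Benjamini-Hochberg adjustment over all 13049 genes, and a gene is called at an adjusted p under 0.05.

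In June, averaged over the sexes, most ER chaperones were higher in secondary than in primary cells and the member genes of feedback and amino acid metabolism were lower, but males and females differed in several of them, as given by sex below. With the sexes averaged, 13 of the 32 members rose in secondary cells and 13 fell, while of all genes tested 31.6% rose and 30.3% fell, 61.9% in all. Of the 9 chaperones and co-chaperones 7 rose and 0 fell, with a median difference of 0.42. All 3 disulfide isomerases rose, with a median of 0.27. All 5 feedback and metabolism genes fell, with a median of -0.64, and so did 3 of the 6 transcription factors. The median over all genes tested was 0.00. These role counts were the same when each library was brought to a total of 1e+06 or scaled by median-of-ratios factors. Those factors ran from 0.9949 to 1.015, so the latter scaling changed the values little and is a weak check. Most members are well expressed in all libraries, and the share called among other genes of like level was not computed.

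The largest of these differences belonged to SESN2, CRELD2 and CHAC1. SESN2, a leucine-binding stress protein that restrains mTORC1, had values of 21.3, 20.9 and 22.1 in secondary June males and 46.8, 46.4 and 47.4 in secondary June females. Primary June cells had 59.5, 62.5 and 57.9 in males and 61.9, 59.3 and 63.6 in females. Every secondary library lay below every primary library, and secondary males lay lowest. SESN2 fell by 0.91 in secondary cells (SE 0.05, adjusted p = 9.01e-14).

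CRELD2, an ER-resident protein induced by ER stress, had values of 41.1, 46.6 and 48.4 in secondary June males and 26.5, 29.0 and 30.7 in secondary June females. Primary June cells had 19.0, 19.1 and 18.7 in males and 18.8, 17.7 and 22.8 in females. Every secondary library was above every primary library. CRELD2 rose by 0.87 (SE 0.07, adjusted p = 5.46e-10).

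CHAC1, which breaks down glutathione and is a target of ATF4, had values of 5.6, 7.16 and 7.31 in secondary June males and 19.0, 17.4 and 20.5 in secondary June females. Primary June cells had 26.0, 25.4 and 22.8 in males and 15.3, 15.1 and 15.4 in females. The sexes moved in opposite directions, so the averaged difference of -0.73 (SE 0.06, adjusted p = 6.13e-10) describes neither of them.

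**Figure D1:**
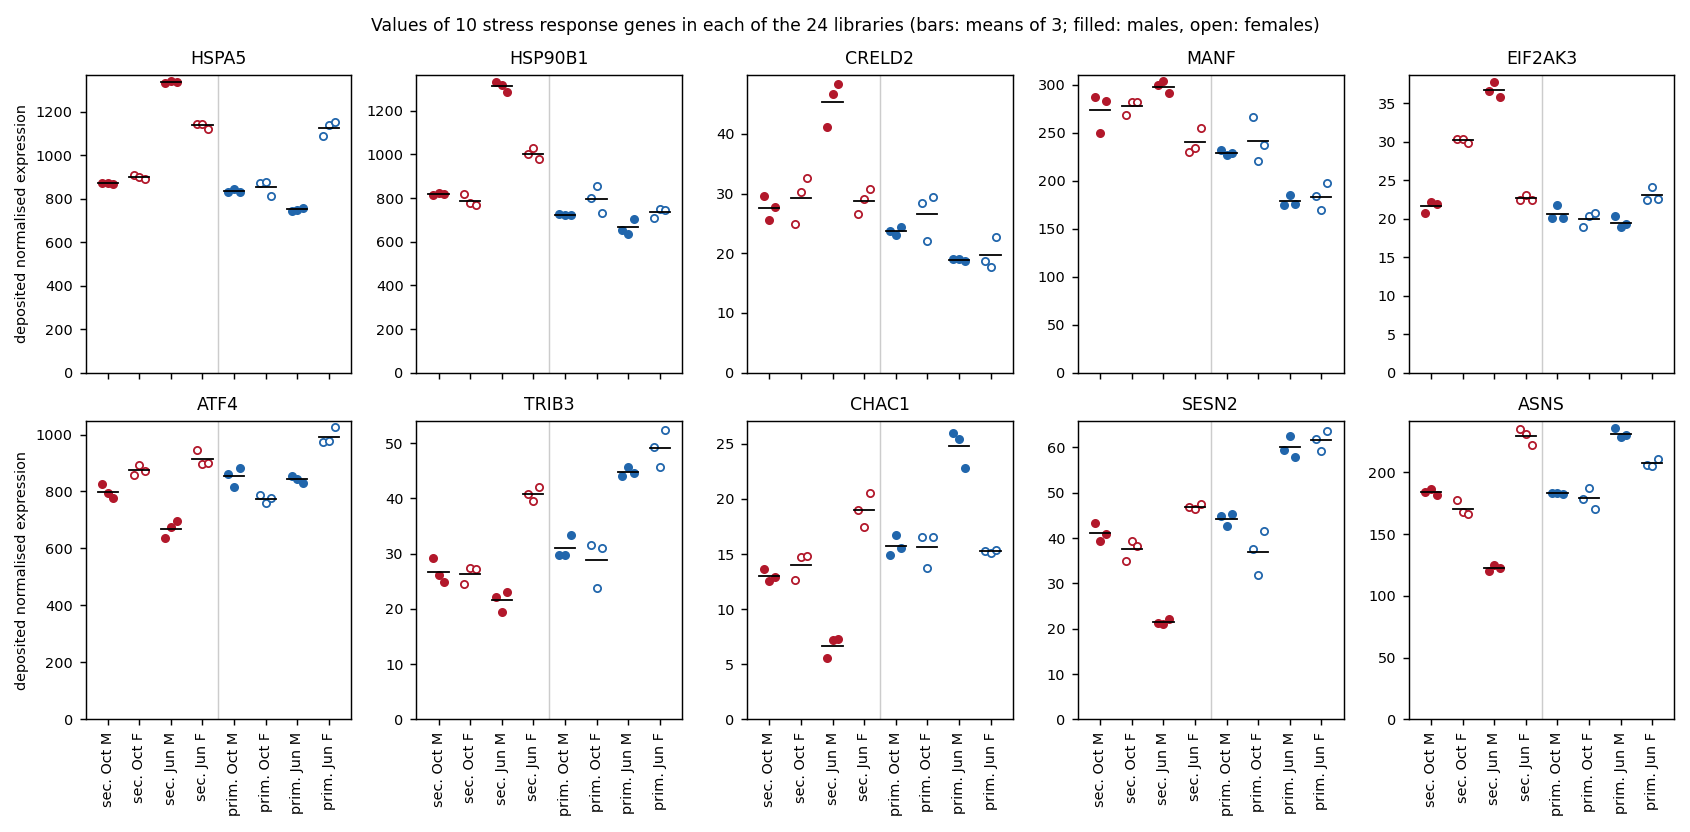
Deposited normalised expression (vertical axes, from 0) of 10 members in each of the 24 libraries, by group (horizontal axes: secondary in red, primary in blue, October left of June, males filled and left of females in open circles); bars are means of 3 libraries. In secondary June males the chaperones and the sensor EIF2AK3 of the upper row stand high and the genes of the lower row low. SESN2 lies between 20.9 and 22.1 there and at 31.9 or more in all other libraries. All 10 shown are members whose secondary June male libraries lay above, or below, every other library.

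The members that set secondary June males apart were of 2 kinds. In 9 of the 32 members all 3 of their libraries lay above every library of the remaining groups, and this held for 8.42% of all genes. These 9 were EIF2AK3, HSPA5, HSP90B1, DNAJB11, SDF2L1, MANF, CRELD2, PDIA4 and EDEM1, of which 6 are chaperones or co-chaperones. In 5 members, ATF4, TRIB3, CHAC1, SESN2 and ASNS, all 3 libraries lay below every other library, which held for 5% of all genes. In primary June males CHAC1 was above all other libraries (8.71% of all genes) and 6 members, XBP1, HSPA5, HSP90B1, DNAJB11, PDIA6 and EDEM1, were below them (6.25%). Primary June females had 6 members above all other libraries, against 4.21% of all genes: ATF4, CEBPB, HERPUD1, SEL1L, PPP1R15A and TRIB3. No other group had more than 2 members apart from the rest in either direction.

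Among males in June, 14 members rose and 13 fell in secondary cells, against 30.7% of all genes rising and 28.9% falling (59.6% in all). The counts were 17 and 9 when libraries were brought to a common total. Here and below, shares of all genes are those of the fit without such scaling. Of the 9 chaperones 7 rose and 0 fell, with a median of 0.73. HSPA5 (BiP), the main Hsp70 chaperone of the ER, had values of 1332, 1342 and 1339 in secondary June males, and those of primary June males were 746, 748 and 760. The groups were far apart relative to their spread, and HSPA5 rose by 0.83 (SE 0.03, adjusted p = 7.89e-16). HSP90B1 (GRP94), the Hsp90 chaperone of the ER, had 1331, 1319 and 1285 in secondary males, with 654, 637 and 704 for primary males. It rose by 0.98 (SE 0.05, adjusted p = 2.21e-14).

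Further members of the chaperone group moved the same way in males. CRELD2 rose by 1.21 (SE 0.10, adjusted p = 8.19e-10). MANF, a secreted ER stress protein, rose by 0.73 (SE 0.06, adjusted p = 1.1e-09), and DNAJB11, a J-domain partner of HSPA5, rose by 0.73 (SE 0.05, adjusted p = 2.08e-11). SDF2L1, which works with DNAJB11, rose by 0.59 (SE 0.12, adjusted p = 0.000151) and HYOU1, a nucleotide exchange factor of HSPA5, by 0.27 (SE 0.05, adjusted p = 2.54e-05). DNAJB9 and DNAJC3, 2 further J-domain proteins, differed by 0.13 and -0.11 and were not called.

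ATF4 and its targets CHAC1, SESN2, TRIB3 and ASNS were among the members that fell in males. CREB3L1 also fell there (difference -0.39), as did SEL1L and ERN1, which are given below. Whether ATF4 underlies any of these falls was not tested. ATF4 had values of 637, 677 and 696 in secondary males, below all of the 854, 846 and 829 in primary males. It fell by 0.33 (SE 0.04, adjusted p = 2.01e-07). CHAC1 fell by 1.75 (SE 0.09, adjusted p = 5.56e-14) and SESN2 by 1.44 (SE 0.07, adjusted p = 1.48e-14). TRIB3, a pseudokinase that feeds back on ATF4 and AKT, had 22.1, 19.5 and 23.0 in secondary males, with 44.1, 45.6 and 44.5 for primary males. Its values were all lower in secondary males, and it fell by 1.02 (SE 0.09, adjusted p = 7.71e-10). ASNS, asparagine synthetase, had 120, 125 and 122 in secondary males, with 236, 228 and 230 for primary males. It fell by 0.91 (SE 0.04, adjusted p = 2.29e-15). CRELD2, CHAC1, SESN2 and TRIB3 were the 4 members called with a log2 difference of at least 1, as were 959 of all genes tested.

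PPP1R15A, which encodes the phosphatase subunit GADD34 that restores translation after EIF2AK3 has slowed it, did not follow the other genes of the feedback group. It had 67.8, 75.7 and 73.4 in secondary June males against 57.7, 60.7 and 60.1 in primary June males. It rose by 0.28 in males (SE 0.06, adjusted p = 0.000495). Among females it had 49.9, 53.9 and 52.9 in secondary cells against 90.1, 94.8 and 100.4 in primary cells, and it fell by 0.85 (SE 0.06, adjusted p = 7.72e-11).

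DDIT3 (CHOP), a transcription factor linked to cell death under lasting stress, showed small differences. It had 79.9, 86.5 and 83.8 in secondary June males against 94.6, 99.5 and 93.1 in primary June males. In females it had 83.9, 87.0 and 90.6 in secondary cells against 81.0, 74.1 and 83.6 in primary cells. The difference was -0.20 in males (SE 0.05, adjusted p = 0.00299), a call that ended at a common total (-0.11, adjusted p = 0.0799). The difference of 0.13 in females (SE 0.05, adjusted p = 0.0461) ended under several settings, and was 0.08 without primary June female replicate 2 (adjusted p = 0.256) and 0.10 without secondary June female replicate 3 (adjusted p = 0.171). XBP1 had 156, 153 and 155 in secondary males, with 148, 152 and 142 for primary males, a difference of 0.07 that was not called (SE 0.04, adjusted p = 0.115), though it was at a common total (0.16, adjusted p = 0.00102).

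Among the sensors in males, EIF2AK3 rose by 0.88 (SE 0.05, adjusted p = 3.3e-13), with 36.6, 37.8 and 35.9 in secondary cells against 20.4, 18.9 and 19.3 in primary cells. ERN1 fell by 0.24 (SE 0.06, adjusted p = 0.0025). ATF6 differed by -0.17 (SE 0.07, adjusted p = 0.03), and this call ended at a common total (-0.08, adjusted p = 0.334) and without secondary June male replicate 3 (adjusted p = 0.147) or primary June male replicate 2 or 3 (adjusted p = 0.0688 and 0.0749). Of the genes of ER-associated degradation, which return misfolded proteins to the cytosol, EDEM1, a mannose-trimming factor, rose by 0.48 (SE 0.04, adjusted p = 4.01e-10). HERPUD1, a scaffold of the degradation complex, rose by 0.18 (SE 0.05, adjusted p = 0.0024). SEL1L, the partner of the ubiquitin ligase SYVN1, fell by 0.39 (SE 0.05, adjusted p = 8.3e-07). SYVN1 itself differed by -0.20 (SE 0.06, adjusted p = 0.00442), a call that ended at a common total (-0.11, adjusted p = 0.0809).

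Among females in June, 13 members rose and 12 fell in secondary cells, against 25.0% of all genes rising and 24.3% falling (49.3% in all). Of the 9 chaperones 5 rose and 1 fell, and of the 5 feedback genes 2 rose and 3 fell. The fall of TRIB3 was among these and ended without secondary June female replicate 2 (-0.24, adjusted p = 0.0588) or primary June female replicate 3 (-0.21, adjusted p = 0.0771). CRELD2 rose by 0.53 (SE 0.10, adjusted p = 0.000204), HSP90B1 by 0.45 (SE 0.05, adjusted p = 3.43e-08), DNAJB11 by 0.43 (SE 0.05, adjusted p = 2.73e-07) and MANF by 0.39 (SE 0.06, adjusted p = 2.6e-05). HSPA5 was not called in females (0.01, SE 0.03, adjusted p = 0.772), with 1147, 1145 and 1123 in secondary cells against 1092, 1140 and 1154 in primary cells. Those ranges overlapped. The disulfide isomerases PDIA3, PDIA4 and PDIA6, which form and reshuffle disulfide bonds, rose by 0.26, 0.39 and 0.25 in females, with the largest adjusted p at 0.000109. PDIA4 and PDIA6 rose by 0.42 and 0.30 in males, and PDIA3 was not called there (0.08, adjusted p = 0.163). CALR, the lectin chaperone calreticulin, rose in both sexes, by 0.46 in males (SE 0.04, adjusted p = 5.33e-10) and by 0.27 in females (SE 0.04, adjusted p = 4.3e-06). CANX, the membrane-bound lectin chaperone calnexin, was not called in females (-0.03, adjusted p = 0.59), and its difference of -0.19 in males (SE 0.04, adjusted p = 0.000799) ended at a common total (-0.10, adjusted p = 0.0908).

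**Figure D2:**
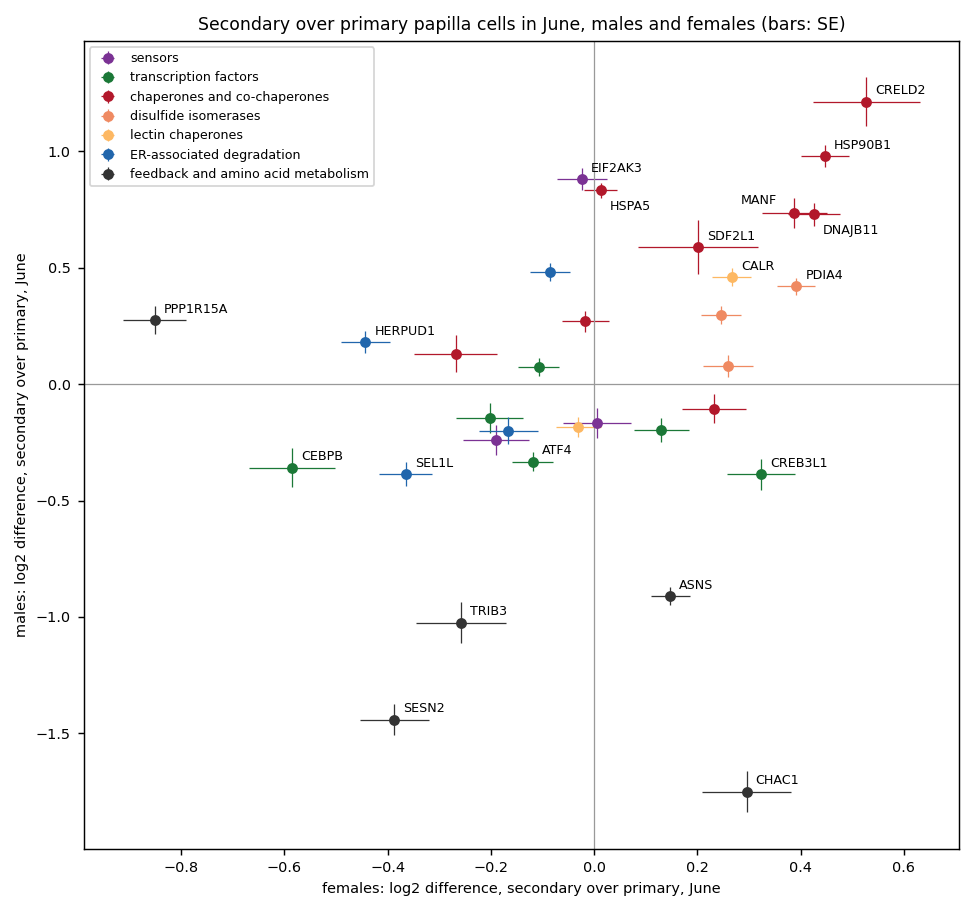
Log2 difference of secondary over primary cells in June in males (vertical axis) against females (horizontal axis) for the 32 members, coloured by role, with bars of 1 SE. HSPA5 and EIF2AK3 lie near 0 on the female axis and at 0.83 and 0.88 on the male axis, and CHAC1 lies at 0.30 in females and -1.75 in males.

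The difference between the sexes was tested as a contrast of its own. In June, the secondary over primary difference was greater in males for 13 members and smaller for 10, against 20.9% and 20.4% of all genes (41.2% in all). At a common total the counts were 17 and 7. The largest was that of CHAC1, at -2.05 (SE 0.12, adjusted p = 5.29e-12), followed by PPP1R15A at 1.13 (SE 0.09, adjusted p = 3.86e-10), ASNS at -1.06 (SE 0.05, adjusted p = 2.69e-13) and SESN2 at -1.05 (SE 0.09, adjusted p = 5.03e-09). EIF2AK3 followed at 0.90 (SE 0.07, adjusted p = 2.99e-10) and HSPA5 at 0.82 (SE 0.05, adjusted p = 1.54e-12). ATF4 differed by -0.21 (SE 0.06, adjusted p = 0.00414), and this call ended at a common total (-0.12, adjusted p = 0.0599).

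Set against females directly, secondary June males had 12 members higher and 13 lower, against 20.9% and 18.6% of all genes (39.5% in all). CHAC1 was lower by 1.38 on the log2 scale (difference -1.38, SE 0.09, adjusted p = 1.92e-11), SESN2 differed by -1.09 (SE 0.07, adjusted p = 1.16e-11) and ATF4 by -0.45 (SE 0.04, adjusted p = 5.6e-09). EIF2AK3 was higher by 0.67 (SE 0.05, adjusted p = 1.7e-10) and CRELD2 by 0.64 (SE 0.10, adjusted p = 3.34e-05). In primary June cells 4 members were higher in males and 13 lower, against 23.1% and 22.3% of all genes (45.4% in all). HSPA5 differed by -0.59 there (SE 0.03, adjusted p = 7.33e-13) and CHAC1 by 0.66 (SE 0.09, adjusted p = 1.4e-06). These comparisons use the same libraries as those of follicle type, so they are not separate evidence.

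In October the differences between follicle types were smaller. With the sexes averaged, 12 members rose in secondary cells and 2 fell, while of all genes tested 17.5% rose and 14.1% fell (31.5% in all). At a common total 9 rose and 5 fell. The range over members was -0.20 to 0.32, compared with -0.91 to 0.87 in June. EIF2AK3 had 20.8, 22.1 and 21.9 in secondary October males and 30.4, 30.4 and 29.8 in secondary October females. Primary October cells had 20.1, 21.8 and 20.1 in males and 19.0, 20.3 and 20.8 in females. The secondary females stood above all others, and primary males overlapped with both secondary males and primary females. EIF2AK3 rose by 0.32 on average (SE 0.03, adjusted p = 1.23e-07), by 0.57 in females (SE 0.05, adjusted p = 1.79e-09) and was not called in males (0.06, SE 0.05, adjusted p = 0.417). The sex difference of -0.51 was called (SE 0.07, adjusted p = 4.21e-06).

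PDIA4, a disulfide isomerase with several thioredoxin-like domains, had 246, 242 and 244 in secondary October males and 229, 238 and 243 in secondary October females. Primary October cells had 199, 203 and 205 in males and 202, 186 and 196 in females. Every secondary library was above every primary one, and PDIA4 rose by 0.27 (SE 0.03, adjusted p = 1.49e-08). CREB3L1 (OASIS), a membrane-bound transcription factor known in mice for raising collagen secretion in bone, had 178, 169 and 178 in secondary October males and 212, 231 and 217 in secondary October females. Primary October cells had 190, 191 and 197 in males and 140, 126 and 165 in females. In males the primary libraries were the higher ones, and in females the secondary. It rose by 0.24 on average (SE 0.05, adjusted p = 0.00031). That average was carried by females, in which it rose by 0.62 (SE 0.07, adjusted p = 8.56e-08), and in males it was not called (-0.14, SE 0.07, adjusted p = 0.168).

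In October the 5 feedback genes all had differences below 0, and 1 of them was called. TRIB3, SESN2, ASNS and PPP1R15A were not called, with differences of -0.16, -0.04, -0.03 and -0.01, although TRIB3 (adjusted p = 0.0504) was called at a common total (-0.20, adjusted p = 0.00793) and without some single libraries, up to -0.22 without primary October female replicate 2 (adjusted p = 0.00137), and ASNS was called at a common total (-0.07, adjusted p = 0.0492). CHAC1 differed by -0.20 (SE 0.06, adjusted p = 0.0167), a call that ended without secondary October female replicate 1 (-0.16, adjusted p = 0.0527). HSPA5 had 875, 871 and 867 in secondary males and 910, 900 and 894 in secondary females, against 830, 847 and 833 in primary males and 873, 876 and 811 in primary females. Its difference of 0.07 (SE 0.02, adjusted p = 0.0253) ended at a common total (0.03, adjusted p = 0.424), with only the compared groups fitted (0.07, adjusted p = 0.111), without primary October female replicate 3 (0.05, adjusted p = 0.0698) and without primary October male replicate 1 or 3 (0.07 each, adjusted p = 0.0557 and 0.0519).

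ATF4 and DDIT3 differed between follicle types in October in a way that depended on sex. DDIT3 had 92.3, 83.3 and 86.3 in secondary October males against 108.7, 104.9 and 105.6 in primary October males. In females it had 93.8, 102.6 and 101.7 in secondary cells against 77.5, 70.6 and 74.8 in primary cells. The groups did not overlap in either sex, secondary cells were lower in males and higher in females, with differences of -0.28 in males (SE 0.05, adjusted p = 0.000465) and 0.41 in females (SE 0.05, adjusted p = 1.38e-06). ATF4 had 827, 795 and 777 in secondary males, overlapping with 861, 817 and 882 in primary males. In females it had 857, 892 and 873 in secondary cells, above the 787, 759 and 777 in primary cells. Its difference was -0.09 in males (adjusted p = 0.109) and 0.17 in females (adjusted p = 0.00134), and the female call ended when only the compared groups were fitted (adjusted p = 0.0586). XBP1 had 188, 177 and 176 in secondary October males and 183, 180 and 184 in females, against 166, 165 and 175 in primary males and 184, 184 and 171 in primary females. Its averaged difference of 0.06 was not called (adjusted p = 0.134).

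By sex, 7 members rose and 3 fell in secondary cells of October males, against 10.9% and 7.63% of all genes (18.5% in all), and these counts became 3 and 12 at a common total and 8 and 6 with only the compared groups fitted. In October females 14 rose and 1 fell, against 18.3% and 17.2% of all genes (35.5% in all), and 5 were called with only those groups fitted. The shares of all genes under these alternatives are not given here. Library totals were 1018330 to 1045876 in secondary October males and 964077 to 973885 in primary October males. A common total moves all genes of a library together, so the turn in males cannot be told apart from a shift of all genes.

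**Figure D3:**
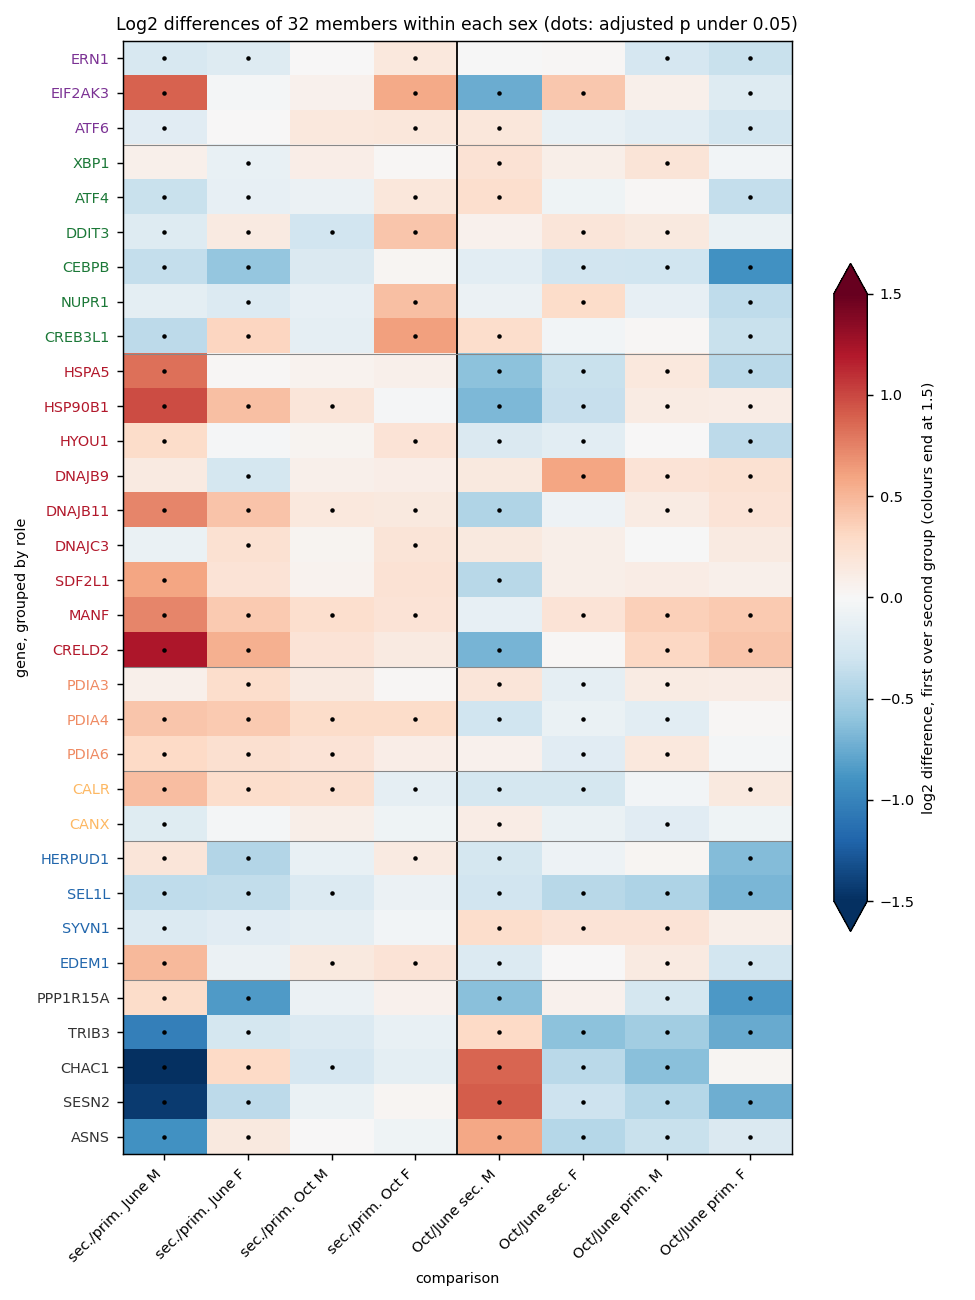
Log2 differences of the 32 members (rows, grouped and coloured by role) in 8 comparisons within 1 sex (columns); red is higher and blue lower in the first-named group, colours end at 1.5, and dots mark an adjusted p under 0.05. The June column of males holds the strongest colours, with CHAC1 at -1.75 and CRELD2 at 1.21, and the October columns the palest.

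October cells were then set against June cells of the same follicle type. In secondary cells 10 members rose in October and 14 fell, against 29.0% and 33.9% of all genes (62.9% in all), and at a common total 7 rose and 16 fell. In primary cells 8 rose and 18 fell, against 28.6% and 32.3% of all genes (60.9% in all), and at a common total 11 rose and 15 fell. In secondary cells 5 of 9 chaperones fell and 2 rose, and in primary cells 2 fell and 5 rose. In primary cells all 5 feedback genes fell, with a median of -0.56, and in secondary cells 3 rose and 2 fell. Of those 3, ASNS was not called at a common total, and TRIB3, one of the 2 that fell (-0.16, adjusted p = 0.0296), lost its call without any 1 of 6 libraries: secondary June female replicate 3, secondary June male replicate 1 or 3, secondary October female replicate 1, and secondary October male replicate 2 or 3 (adjusted p between 0.0548 and 0.0839).

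In secondary cells, HSP90B1 had 814, 824 and 820 in October males and 816, 776 and 770 in October females, against 1331, 1319 and 1285 in June males and 1000, 1029 and 980 in June females. All October libraries were below all June libraries. HSP90B1 fell by 0.51 (SE 0.03, adjusted p = 4.55e-12). HSPA5 fell by 0.48 (SE 0.02, adjusted p = 2.86e-14), by 0.62 in males (SE 0.03, adjusted p = 1.94e-13) and by 0.34 in females (SE 0.03, adjusted p = 1.11e-08). DNAJB9 (ERdj4), a J-domain protein that assists degradation, was one of the 2 chaperones that rose. It had 29.1, 32.1 and 29.8 in October males and 37.5, 33.2 and 32.1 in October females, against 31.9, 25.9 and 24.5 in June males and 21.8, 23.4 and 21.6 in June females. A single June library of males lay within the October range. DNAJB9 rose by 0.37 (SE 0.06, adjusted p = 5.53e-06), by 0.60 in females (SE 0.08, adjusted p = 1.62e-06) and was not called in males (0.15, SE 0.08, adjusted p = 0.122). The other was DNAJC3 (0.12, SE 0.04, adjusted p = 0.0255), whose call ended at a common total (0.09, adjusted p = 0.118) and without secondary June female replicate 3, secondary June male replicate 3, secondary October female replicate 1 or secondary October male replicate 2 (adjusted p between 0.0584 and 0.0985).

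XBP1 rose by 0.15 in secondary cells (SE 0.03, adjusted p = 6.15e-05), with 188, 177 and 176 in October males and 183, 180 and 184 in October females, against 156, 153 and 155 in June males and 168, 175 and 171 in June females. SYVN1 rose by 0.24 (SE 0.04, adjusted p = 2.31e-05) and SEL1L fell by 0.35 (SE 0.04, adjusted p = 1.98e-08), 2 genes whose proteins work in a shared complex. PPP1R15A fell by 0.28 (SE 0.04, adjusted p = 6.37e-06) and CALR by 0.26 (SE 0.03, adjusted p = 1.49e-08).

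The averages hid opposite changes of SESN2, CHAC1, ASNS and TRIB3 in secondary cells. Of the 5 feedback genes, 4 rose and 1 fell in males, and 0 rose and 4 fell in females. PPP1R15A did not follow the others. Its mean in males was 46.7 (SD 4.43) in October against 72.3 (SD 4.04) in June, and in females 54.5 (SD 2.66) against 52.2 (SD 2.11). In males SESN2 had 43.4, 39.4 and 40.9 in October against 21.3, 20.9 and 22.1 in June, a rise of 0.91 (SE 0.07, adjusted p = 6.81e-11). In females it had 34.9, 39.3 and 38.3 in October against 46.8, 46.4 and 47.4 in June, and it fell by 0.32 (SE 0.07, adjusted p = 0.00041). CHAC1 rose by 0.87 in males (SE 0.09, adjusted p = 1.25e-08) and fell by 0.41 in females (SE 0.09, adjusted p = 0.000436). ASNS rose by 0.58 in males (SE 0.04, adjusted p = 8.17e-12) and fell by 0.43 in females (SE 0.04, adjusted p = 2.78e-09). TRIB3 rose by 0.30 in males (SE 0.09, adjusted p = 0.00542) and fell by 0.62 in females (SE 0.09, adjusted p = 3.48e-06). Counts in secondary cells were 11 higher and 13 lower in males, against 25.3% and 31.2% of all genes (56.5% in all), and 6 higher and 13 lower in females, against 24.2% and 27.1% (51.3% in all). The common total gave 8 and 16 in males.

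EIF2AK3 had the reverse arrangement. In secondary males it had 20.8, 22.1 and 21.9 in October against 36.6, 37.8 and 35.9 in June, and it fell by 0.74 (SE 0.05, adjusted p = 8.95e-12). In secondary females it had 30.4, 30.4 and 29.8 in October against 22.5, 23.1 and 22.5 in June, and it rose by 0.40 (SE 0.05, adjusted p = 3.74e-07). For the change over months in secondary cells, the sexes differed in 10 members with a greater and 13 with a smaller value in males, against 17.3% and 20.4% of all genes (37.7% in all), or 7 and 15 at a common total. That scaling also moved the median of all genes in this contrast by -0.10. CHAC1 differed by 1.28 (SE 0.12, adjusted p = 1.73e-08), SESN2 by 1.23 (SE 0.09, adjusted p = 4.67e-10) and EIF2AK3 by -1.14 (SE 0.07, adjusted p = 7.5e-12).

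In primary cells the feedback genes fell in October in both sexes, 5 of 5 in males and 4 of 5 in females. TRIB3 had 29.8, 29.8 and 33.4 in October males and 31.6, 23.7 and 31.0 in October females, against 44.1, 45.6 and 44.5 in June males and 49.2, 45.7 and 52.3 in June females. No October library reached the June range, and TRIB3 fell by 0.64 (SE 0.06, adjusted p = 6.67e-09). SESN2 fell by 0.58 (SE 0.05, adjusted p = 4.1e-10) and PPP1R15A by 0.56 (SE 0.04, adjusted p = 1.7e-10). CHAC1 fell by 0.30 (SE 0.06, adjusted p = 0.000236), by 0.62 in males (SE 0.09, adjusted p = 2.39e-06), and was not called in females (0.03, SE 0.09, adjusted p = 0.821).

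CEBPB, a transcription factor that partners ATF4 and DDIT3, had 76.0, 76.2 and 78.8 in primary October males and 69.9, 56.5 and 68.3 in primary October females. Primary June cells had 95.3, 100.5 and 90.03 in males and 124.0, 111.2 and 130.9 in females. The months did not overlap, and CEBPB fell by 0.60 (SE 0.06, adjusted p = 8.35e-09). SEL1L had 86.2, 86.8 and 84.9 in October males and 70.9, 84.4 and 83.9 in October females, against 124.1, 115.8 and 118.0 in June males and 126.9, 131.5 and 128.4 in June females. It fell by 0.58 (SE 0.04, adjusted p = 3.86e-12). Among chaperones of primary cells, MANF rose by 0.38 (SE 0.04, adjusted p = 2.1e-07) and CRELD2 by 0.36 (SE 0.07, adjusted p = 0.000187). HSPA5 rose by 0.15 in males (SE 0.03, adjusted p = 0.000329) and fell by 0.40 in females (SE 0.03, adjusted p = 7.22e-10).

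By sex, 12 members rose and 10 fell in October in primary males, against 26.0% and 29.5% of all genes (55.5% in all), or 15 and 8 at a common total. In primary females 6 rose and 16 fell, against 22.7% and 25.6% (48.2% in all), or 3 and 15 with only the compared groups fitted. The difference between the sexes was positive for 15 members and negative for 3, against 17.7% and 19.1% of all genes (36.8% in all), or 16 and 1 at a common total. It was largest for HERPUD1, at 0.67 (SE 0.07, adjusted p = 3.17e-08). HERPUD1 had 129, 133 and 138 in primary October males, with 128, 137 and 129 for primary June males, and the months overlapped. In primary females it had 116, 108 and 99.4 in October, below the 167, 169 and 172 of June. CHAC1 differed by -0.65 (SE 0.12, adjusted p = 0.00021) and CEBPB by 0.60 (SE 0.12, adjusted p = 0.000303), where CEBPB fell by 0.30 in males (adjusted p = 0.00377) and by 0.90 in females (adjusted p = 6.37e-09).

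**Figure D4:**
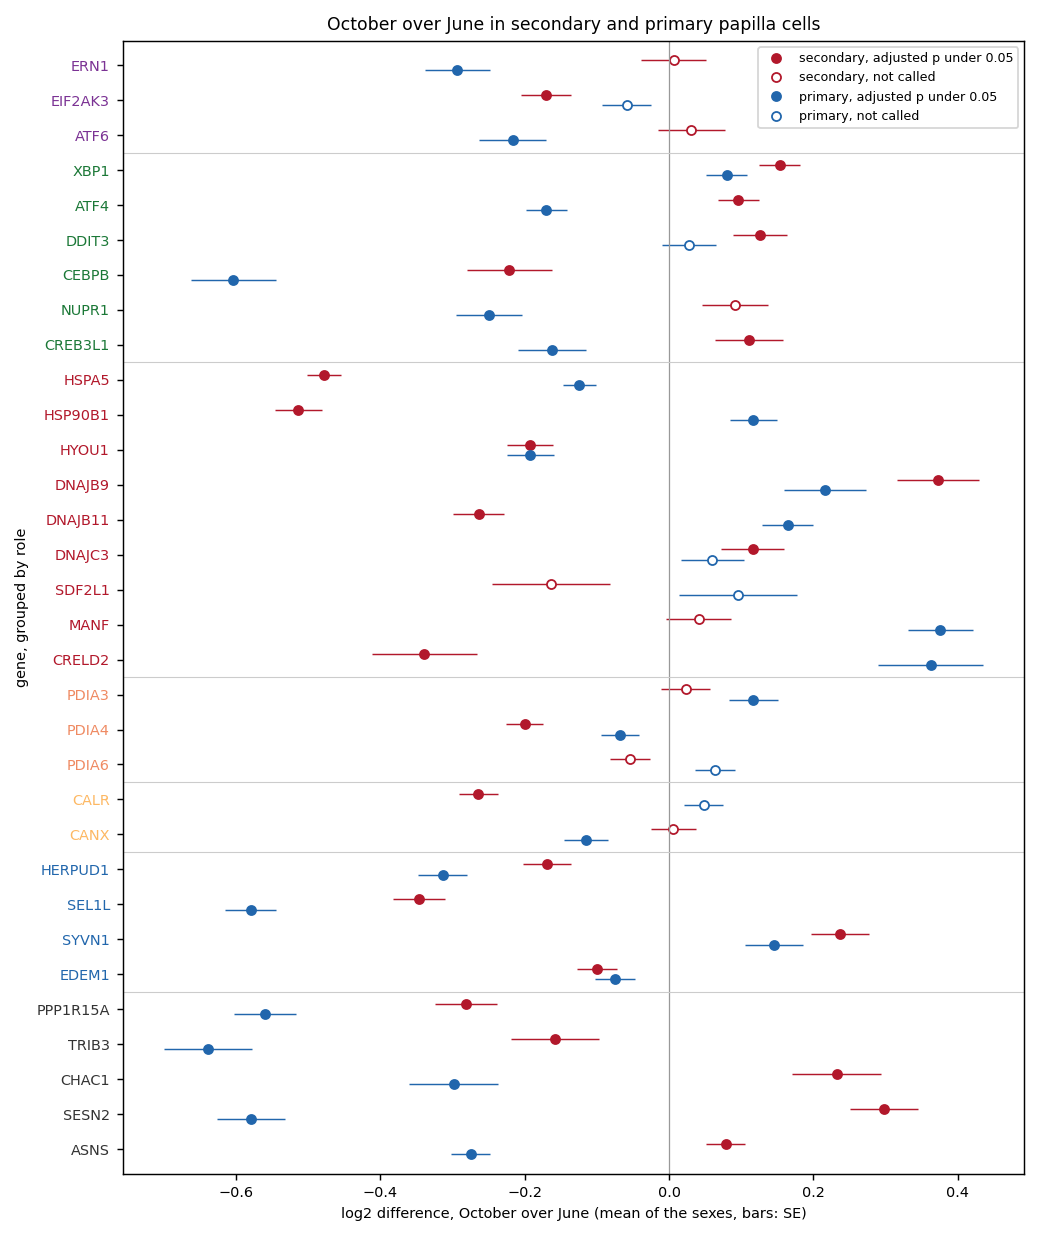
Log2 difference of October over June, averaged over the sexes, with bars of 1 SE, for the 32 members (rows, coloured by role) in secondary cells (red) and primary cells (blue); filled points have an adjusted p under 0.05. HSP90B1 lies at -0.51 in secondary and 0.12 in primary cells, and SESN2 at 0.30 in secondary and -0.58 in primary cells.

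Follicle type and month interacted in 22 members. This contrast, the difference of secondary over primary in October less that in June, was positive for 14 and negative for 8, against 23.3% and 22.9% of all genes (46.2% in all). At a common total the counts were 11 and 12. All 5 feedback genes were positive with a median of 0.48, and 5 of the 9 chaperones were negative and 0 positive. These are averages over the sexes, and the contrast was not computed within 1 sex. In females CHAC1 had means of 18.98 (SD 1.54) in secondary and 15.25 (SD 0.173) in primary June cells. In October these were 14.05 (SD 1.23) and 15.61 (SD 1.61), so its female means went the other way. The same held for ASNS in females and for PPP1R15A in males, but not for TRIB3 or SESN2. SESN2 had the largest value, 0.88 (SE 0.07, adjusted p = 2.41e-10), then CRELD2 with -0.70 (SE 0.10, adjusted p = 6.99e-06) and HSP90B1 with -0.63 (SE 0.05, adjusted p = 1.33e-10). This contrast is built from the same libraries as the comparisons above.

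The sexes also differed in October. In secondary October cells 3 members were higher in males and 8 lower, against 19.5% and 20.9% of all genes (40.4% in all), and at a common total 0 were higher and 11 lower. In primary October cells 9 were higher and 5 lower, against 15.8% and 17.8% (33.6% in all), or 9 and 2 at a common total. DDIT3 and SYVN1 were above all other libraries in primary October males, against 1.43% of all genes, and ATF6 and HYOU1 were below all others in primary October females, against 2.02%. NUPR1, a small stress-induced nuclear protein, was above all others in secondary October females (4.25%), with 498, 502 and 529. Its highest value elsewhere was close, 497 in a primary June library of females. NUPR1 had 303, 287 and 275 in secondary October males, with 330, 307 and 303 for primary October males, and 392, 337 and 393 in primary October females. The sexes thus differed in secondary cells more than in primary cells, and NUPR1 rose by 0.45 in secondary cells of October females (SE 0.06, adjusted p = 6.62e-06) and was not called in males (-0.12, SE 0.06, adjusted p = 0.227). The sex difference of the October comparison of follicle types was positive for 2 members and negative for 6, against 13.7% and 13.0% of all genes (26.7% in all), or 1 and 9 at a common total. CREB3L1 differed most, by -0.75 (SE 0.09, adjusted p = 1.4e-06), then DDIT3 by -0.70 (SE 0.08, adjusted p = 1.75e-07) and NUPR1 by -0.57 (SE 0.09, adjusted p = 4.69e-05).

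Other genes of the same pathways were read from lists chosen by function, with earlier results of these data known. They are therefore not independent of the data. The list of amino acid response genes beyond the members had 26 tested genes, among them transporters and enzymes of serine and proline synthesis. In secondary cells of June males 1 of them rose and 20 fell, with a median of -0.52, against 30.7% and 28.9% of all genes. In June females 8 rose and 11 fell, with a median of -0.04, against 25.0% and 24.3%. The sex difference was positive for 2 and negative for 20, against 20.9% and 20.4%, or 3 and 16 at a common total. In October against June, 1 rose and 21 fell in primary cells, with a median of -0.52, against 28.6% and 32.3% of all genes. In secondary cells 7 rose and 15 fell, with a median of -0.15, against 29.0% and 33.9%. By sex these were 13 and 7 in males, or 12 and 12 at a common total, and 0 and 19 in females, against 25.3% and 31.2% of all genes in males and 24.2% and 27.1% in females. In October 10 rose and 3 fell in secondary over primary cells, against 17.5% and 14.1%, or 8 and 5 at a common total. The summed level of its 27 listed genes was 2220 to 2280 in secondary June males, 3570 to 3610 in secondary June females, 3170 to 3290 in primary June males and 3710 to 3780 in primary June females. It was 2440 to 2760 over all October libraries.

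The gene that rose in secondary June males, STC2, a secreted glycoprotein, went against its list. It had 41.4, 39.9 and 40.4 in secondary June males and 18.9, 21.2 and 21.4 in secondary June females, against 5.92, 7.47 and 6.74 in primary June males and 7.42, 7.0 and 7.27 in primary June females. STC2 rose by 1.91 averaged over the sexes (SE 0.05, adjusted p = 1.59e-19). VLDLR, a lipoprotein receptor raised by ATF4, had 16.8, 17.4 and 17.6 in secondary June males and 18.3, 19.7 and 18.6 in secondary June females, against 42.2, 38.4 and 39.1 in primary males and 44.6, 45.4 and 48.0 in primary females. VLDLR fell by 1.20 (SE 0.04, adjusted p = 6.42e-18), by 1.16 in males and by 1.24 in females, and the difference between the sexes of 0.08 was not called (SE 0.07, adjusted p = 0.388). In October against June, the stress cytokine GDF15 fell by 1.95 in primary cells (SE 0.07, adjusted p = 2.14e-16) and by 1.08 in secondary cells (SE 0.07, adjusted p = 7.22e-12). SLC7A11, the cystine transporter, fell by 1.11 in secondary cells (SE 0.06, adjusted p = 6.28e-14).

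Many aminoacyl-tRNA synthetases are ATF4 targets. Of 20, 6 rose and 11 fell in secondary cells of June males, with a median of -0.24, against 30.7% and 28.9% of all genes. In June females 11 rose and 1 fell, with a median of 0.12, against 25.0% and 24.3%. The sex difference was positive for 0 and negative for 13, against 20.9% and 20.4% of all genes, or 3 and 10 at a common total. In secondary cells over the months, 13 rose and 2 fell in males in October, against 25.3% and 31.2%, and 0 rose and 14 fell in females, against 24.2% and 27.1%. At a common total the male counts were 8 and 4. That sex difference was positive for 16 and negative for 1, against 17.3% and 20.4%. SARS, seryl-tRNA synthetase, had 241, 262 and 264 in secondary June males, with 511, 528 and 497 for primary June males. In June females it had 342, 345 and 363 in secondary cells, and 357, 357 and 411 in primary cells. The groups lay far apart in males and overlapped in females. SARS fell by 1.00 in males (SE 0.06, adjusted p = 5.92e-13) and was not called in females (-0.10, SE 0.06, adjusted p = 0.168), and the sexes differed by -0.90 (SE 0.08, adjusted p = 4.31e-09). HARS, histidyl-tRNA synthetase, rose by 0.41 in males (SE 0.05, adjusted p = 2.32e-07) and by 0.32 in females (SE 0.05, adjusted p = 1.01e-05).

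Among other sensors and factors, 7 of 30 rose and 15 fell in secondary June cells, against 31.6% and 30.3% of all genes. ATF5, a factor related to ATF4, had 175, 188 and 193 in secondary June males and 299, 288 and 287 in secondary June females, against 481, 450 and 453 in primary males and 376, 357 and 356 in primary females. ATF5 fell by 0.81 (SE 0.04, adjusted p = 9.6e-15). MAP3K5 (ASK1), a stress kinase, fell by 0.66 there (SE 0.05, adjusted p = 1.95e-10).

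Of 24 other ER folding genes, 8 rose and 7 fell in secondary June cells, with a median of 0.01, which is near the 31.6% and 30.3% of all genes. In October 13 rose and 2 fell in secondary over primary cells, with a median of 0.11, against 17.5% and 14.1% of all genes, or 9 and 3 at a common total. In June FKBP9, a proline isomerase of the ER, rose by 0.68 (SE 0.03, adjusted p = 8.7e-15), and ERO1A, the oxidase that recharges disulfide isomerases, fell by 0.60 (SE 0.06, adjusted p = 2.24e-08). Of 26 genes of the translocon and of signal peptide handling, 18 rose and 0 fell in secondary cells in October against June, with a median of 0.19, against 29.0% and 33.9% of all genes. In primary cells 18 rose and 1 fell, with a median of 0.18, against 28.6% and 32.3%. At a common total 16 rose and 2 fell in secondary cells and 20 rose and 0 fell in primary cells. In October 19 rose and 1 fell in secondary over primary cells, against 17.5% and 14.1%, or 9 and 1 at a common total. Of 27 other degradation and export genes, 9 rose and 7 fell in secondary June cells, or 14 and 5 at a common total, and of 11 mitochondrial stress genes 4 rose and 2 fell, against the same 31.6% and 30.3% of all genes. In October 10 degradation and export genes rose and 0 fell in secondary over primary cells, against 17.5% and 14.1%, or 6 and 1 at a common total. In October against June 16 rose and 4 fell in secondary cells, against 29.0% and 33.9%, or 14 and 5 at a common total. In primary cells 14 rose and 5 fell, against 28.6% and 32.3%, or 18 and 3 at a common total.

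Further genes are named as the largest called of their lists. In October against June, PDIA5, a disulfide isomerase, had 53.3, 50.1 and 51.2 in secondary October males and 64.9, 75.9 and 71.5 in secondary October females, with 35.5, 36.5 and 34.7 in secondary June males and 45.9, 46.9 and 48.7 in secondary June females. PDIA5 rose by 0.55 in secondary cells (SE 0.04, adjusted p = 1.03e-10) and by 0.72 in primary cells (SE 0.04, adjusted p = 1.04e-12). SEC23B, a coat protein of vesicles that leave the ER, rose by 0.54 in secondary (SE 0.04, adjusted p = 5.53e-12) and by 0.54 in primary cells (SE 0.04, adjusted p = 9.64e-12). The 12 October values of SEC23B, 31.72 to 42.5, lay above its 12 June values, 21.4 to 29.4. MAP3K5 fell by 0.89 in secondary (SE 0.05, adjusted p = 1.08e-12) and by 1.23 in primary cells (SE 0.05, adjusted p = 4.43e-15). HSPD1, the mitochondrial Hsp60 chaperonin, rose by 0.29 in secondary over primary cells in June (SE 0.04, adjusted p = 3.29e-07). In October, STC2 again stood higher in secondary over primary cells, by 1.44 (SE 0.05, adjusted p = 1.68e-16), and SERPINH1, a collagen chaperone, rose by 0.39 (SE 0.05, adjusted p = 4.43e-07).

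Cell cycle genes moved with the same groups. All 12 cell cycle markers were higher in secondary than in primary June cells, with a median difference of 1.57. In October against June all 12 were lower in secondary cells, with a median of -0.96, and all 12 higher in primary cells, with a median of 0.72. In the interaction all 12 were negative, with a median of -1.59. Their summed level was 380 to 398 in secondary June males and 403 to 412 in secondary June females, against 103 to 109 in primary June males and 138 to 143 in primary June females. In secondary June cells that sum was slightly lower in males than in females. The part of the cell cycle genes in the member differences was not tested. Of 10 mesenchymal markers, 3 were higher and 7 lower in secondary than in primary June males, with differences between -1.39 and 2.52. Their summed level was 27600 to 29400 in secondary June males, the lowest of the groups, against 44200 to 46300 in primary June males. Of 9 pericyte and muscle markers tested 2 were higher and 7 lower there, and the 10 listed summed to 10600 to 11800 in secondary June males, against 18000 to 18700 in primary June males. The part of these markers in what sets secondary June males apart was not tested. The summed level of 9 immune markers was 35.0 to 41.6 in secondary June males and 11.0 to 25.9 elsewhere. It came mostly from CD68 and CD14, and PTPRC, the defining leukocyte gene, was at or near 0 in every group (group means up to 0.00667). The 13 listed keratinocyte markers summed to 297 to 325 in secondary October females and to 4.68 to 78.9 in all other groups, led by KRT5. Their part in the October differences of secondary females, such as those of EIF2AK3, CREB3L1 and NUPR1, was not tested. The endothelial gene CDH5 and the melanocyte gene TYRP1 were at or near 0 throughout.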

How the data were processed

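RNA of papilla cells was sequenced in 24 libraries. RNAiso Plus served for extraction and NEBNext Ultra reagents for the paired-end libraries, per the labels' protocols. The submitters' processing notes name kallisto 0.46.1 and sleuth 0.30.0 without their roles. Build and transcript set: not given in the sources used here. For each gene and library the authors deposited 1 normalised signal value with 2 decimals, not a read tally. Library totals have a geometric mean of 1e+06, and no scaling factor is stated. Levels are therefore not compared between genes, counting intervals cannot be had, and the spread over 3 libraries sets the precision. Summed levels of lists and markers are compared between groups only, and genes with high values weigh most in them. All 32 member IDs matched the same symbols in the reference gene table, and several tRNA synthetases carry older symbols in the deposited files.

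Values were set to log2(value + 1), which understates differences of low genes, and modelled with limma 3.58.1 under R 4.3.3 (with statmod 1.5.0) using 8 group means, a variance trend and robust estimation, over all 13049 genes with a value of 1 in at least 3 libraries. There were 21 contrasts, with Benjamini-Hochberg adjustment within each. The fit was tested on simulated data. Members, roles and gene lists were chosen with earlier results of these data known. Library values are given for the 3 called members with the largest difference in each averaged comparison, interaction and sex difference, for HSPA5, ATF4, DDIT3 and XBP1, and for some others picked after their values were seen. Other pathway genes named are among the 2 largest called of their list in a comparison, or their values in a further comparison. Alternatives were no filter, a filter in 6 libraries, a pseudocount of 0.1, a common total of 1e+06, median-of-ratios factors, a spread not estimated robustly, a log2 difference of at least 1 as well, the compared groups alone, the replicate number as a block and each library left out. Those for single members within 1 sex and for the other lists were added after seeing the data. The labels do not say whether equal replicate numbers pair the libraries, and the main fit treated the libraries as unpaired. Libraries are labelled as biological replicates, with no animals named, so p-values measure the spread between these libraries.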

Additional observations from a re-analysis of the deposited data

Results flagged for a closer look

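A result was set aside here where the difference between 2 effects passed the test and both effects passed it in opposite directions (limma, Benjamini-Hochberg). Groups of 3 libraries are too small for a check of single outlying libraries.

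For secondary over primary cells in June, 6 members qualified, and 6.87% of all genes did. CHAC1 had -1.75 in males and 0.30 in females, a difference of -2.05. ASNS had -0.91 and 0.15 (difference -1.06), CREB3L1 -0.39 and 0.32 (difference -0.71) and DDIT3 -0.20 and 0.13 (difference -0.33). PPP1R15A had 0.28 in males and -0.85 in females (difference 1.13), and HERPUD1 had 0.18 and -0.44 (difference 0.62). DDIT3 is the least secure of these, since its male call ended at a common total and its female call ended under 16 alternatives, 12 of which leave out 1 library.

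In October, 2 members qualified, and 3.82% of all genes did. DDIT3 had -0.28 in males and 0.41 in females, a difference of -0.70. CALR had 0.24 and -0.14, a difference of 0.38, and its female call ended with only the compared groups fitted.

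For October over June in secondary cells, 6 members qualified, and 6.24% of all genes did. EIF2AK3 had -0.74 in males and 0.40 in females, a difference of -1.14. The other 5 ran the opposite way. CHAC1 had 0.87 and -0.41 (difference 1.28), SESN2 0.91 and -0.32 (difference 1.23), ASNS 0.58 and -0.43 (difference 1.01), TRIB3 0.30 and -0.62 (difference 0.92) and PDIA3 0.18 and -0.14 (difference 0.32). Both PDIA3 calls ended at a common total, and its female call also ended without any 1 of 4 libraries: secondary June female replicate 1 or 2, or secondary October female replicate 2 or 3.

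For October over June in primary cells, 2 members qualified, and 6.08% of all genes did. HSPA5 had 0.15 in males and -0.40 in females, a difference of 0.56, and EDEM1 had 0.13 and -0.28, a difference of 0.41. For the interaction of follicle type and month, NUPR1 qualified, as did 5.45% of all genes. It had 0.17 for secondary over primary cells in October and -0.17 in June, a difference of 0.34.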

How the results depend on the processing

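With the sexes averaged, the number of members called was 26 for secondary over primary cells in June and 14 in October, 24 and 26 for October over June in secondary and in primary cells, and 22 for the interaction. Leaving out each of the 24 libraries in turn gave 26 to 27, 12 to 18, 22 to 25, 24 to 27 and 21 to 24. No member called both in the full fit and under an alternative changed direction between them. The balance of the counts did turn in places. At a common total, secondary over primary cells in October males went from 7 higher and 3 lower to 3 and 12. The interaction went from 14 and 8 to 11 and 12. A common total moves all genes of a library together, and the shares of all genes at a common total are not given here. These turns therefore cannot be told apart from a shift of all genes. Asking for a log2 difference of at least 1 as well left 4 members for secondary over primary cells in June males and 2 for males over females in secondary June cells. It left 4 each for the sex differences in June and in secondary cells over the months. Of all 13049 genes, 959, 252, 742 and 695 were left in these comparisons, in that order. In every other comparison 0 members were left.

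With only the compared groups fitted, 5 members were called for secondary over primary cells in October females (15 in the full fit), 7 for males over females in secondary October cells (11) and 6 in primary October cells (14). Of all genes, the full fit called 35.5%, 40.4% and 33.6% in these comparisons. The shares in the smaller fits are not given here. For males over females, leaving out 1 library gave 6 to 14 members in secondary October cells, with 6 without secondary October female replicate 2 and 7 without secondary October male replicate 2. In primary October cells it gave 9 to 17, with 9 without primary October male replicate 3.

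Deviations from the group means were correlated between libraries of different groups. Of 84 pairs with equal replicate numbers, 25 had a correlation above 0.1, with a range of -0.281 to 0.348. The median was 0.034, against -0.017 for pairs with different numbers. By mean correlation with libraries of other groups, 11 of 24 libraries were closest to those of their own number, out of 3 numbers. The labels do not say whether equal numbers share an animal or day, and pairing was not tested. With the replicate number as a block, 26 members were called in June, 16 in October, 24 and 26 over the months and 22 for the interaction.

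Read depth is unknown here, so it cannot be said which differences it limits. The common total of 1e+06 kept fewer of the calls than the other scaling, the median-of-ratios factors, in most comparisons. In the sex-averaged comparison of October it kept 11 of 14 calls, against 14 with the factors. In the interaction it kept 19 of 22, against 22, and for follicle type in October males 6 of 10, against 9.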
